A study of Mus musculus with 4 samples.

Results

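Cortical layer 2/3 lies beneath the cell-poor layer 1 and holds pyramidal neurons whose axons run mostly to other cortical areas of the same and the opposite hemisphere. Here it is described through 1047 spots of coronal mouse brain sections in which genes of these neurons were high, out of 12601 spots kept of the 12602 in the table. The spots were chosen by marker level: Cux2, Lamp5 and Rasgrf2 were each scaled to counts per 10000 in a spot, log-transformed and expressed as a z-score over all kept spots, and a member had a mean z of at least 1 over these genes and a mean z under 1 over Rorb, Scnn1a and Rspo1, markers of layer 4. These marker levels chose the spots, so differences from other spots are given as descriptions with no test.

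The sections were made from formalin-fixed, paraffin-embedded brains of 4 mice, trimmed to a level that shows the striatum, and were assayed with the Visium CytAssist chemistry, in which pairs of gene probes are captured on an array of barcoded spots. The study's groups were 2 wild-type mice and 2 mice heterozygous for Celsr3, an atypical cadherin with a part in axon tract formation, none of them treated. The labels do not give the strain, age or sex, nor the Celsr3 allele. The spots fall into 4 barcode sets by the ending of their names, numbered 1 to 4 here, and these endings do not match the mouse labels. No set was therefore assigned to a mouse or a genotype, wild-type and heterozygous mice were not compared, and every value below is given by set with its counting error at most.

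Layer 2/3 neurons are intratelencephalic: they signal with glutamate, receive much of their input from layer 4 and from other cortical neurons, and pass it to layer 5 and across the corpus callosum. Cux1 and Cux2 are transcription factors of these neurons, and calbindin (Calb1) marks many of them in the mouse. Inhibitory interneurons that express Vip or Htr3a are known to be frequent in the upper layers, while myelinated axons become denser toward the white matter. A Visium spot covers a patch of tissue with more than 1 cell, so a level in a spot is a sum over neurons, glia and vessels.

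Members made up 4.88, 13.6, 5.84 and 9.59% of the kept spots in sets 1 to 4, with exact 95% binomial intervals of 4.14 to 5.70%, 12.3 to 14.9%, 5.08 to 6.67% and 8.61 to 10.7%. These shares stand for 149, 381, 201 and 316 spots. Sets 2 and 4 were above sets 1 and 3 by more than the counting error, although a share also depends on how much cortex a section holds. The z-scores were taken over the 4 sets together, so marker levels of each library also enter the share, which was not tested. Median member scores were 1.63, 2.01, 1.64 and 2.04 in sets 1 to 4. With z-scores within each set there were 1013 members, 908 of them also members here. The members held 10526116, 17432642, 12352071 and 9606012 counts, with a median of 71318, 47168, 62190 and 32444 counts per spot, against 51520.5, 37380, 44130 and 26104 in all other kept spots of the same set. Member depth was thus highest in set 1 and lowest in set 4, and in each set it was above that of the other spots. The 964 different barcodes among the members included 82 that were members in more than 1 set, which are shared array positions and not shared cells, and 0 that were members in all sets.

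The threshold cut through a continuum. The 50 members with the lowest scores lay between 1.00 and 1.07, with Cux2 at 101 CPM, Lamp5 at 329.7 CPM and Rasgrf2 at 160.4 CPM, where CPM is a gene's counts per 1000000 counts, both summed over the spots. The 50 spots just under the threshold lay between 0.94 and 1.00, with 101, 304 and 163 CPM. A further 291 spots passed both the layer 2/3 and the layer 4 threshold and were not members by the rule, 56, 66, 64 and 105 in sets 1 to 4. They belong to none of the layer groups but are counted among all other spots. For comparison, spots with markers of the deeper layers were formed by the same z-scores, each with a layer 2/3 score under 1: 624 layer 4 spots (Rorb, Scnn1a and Rspo1), 1132 layer 5 spots (Fezf2 and Deptor) and 1003 layer 6 spots (Hs3st4, Rprm and Syt6), a spot with both deep scores going to the higher.

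The label was checked against 5 genes of cortical excitatory neurons, among them Slc17a7, a vesicular glutamate transporter, and the transcription factors Neurod2, Neurod6 and Emx1. These 5 genes together reached at least 1000 CPM in 964 members, and 83 members, 7.93%, lay below that level. The 83 were 1, 54, 1 and 27 spots in sets 1 to 4, and 16 members lay within 200 CPM of the level. In the 54 spots of set 2 the summed level of 10 striatal genes had a median of 8728 CPM, against 479 CPM in the other 327 members of the set. Tac1, the substance P precursor of striatal direct-pathway neurons, was at 990 CPM in these 54 spots and at 7.996 CPM in the other members, and Slc17a7 was at 47.8 against 2342 CPM. The 27 spots of set 4 were mixed: their striatal median was 652 CPM and their highest striatal level 16353 CPM. The striatal gene Ppp1r1b was at 1430 CPM over these spots against 277 CPM in the other members of the set. Baiap3, a gene high in the hypothalamus, was at 369 CPM against 4.58 CPM. These spots passed the rule without a cortical profile, so the main counts are also given with the 1000 CPM minimum applied, a check chosen after the data were seen. The same minimum held for 4740 of all kept spots, of which the 964 members were 20.3%.

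**Figure D1:**
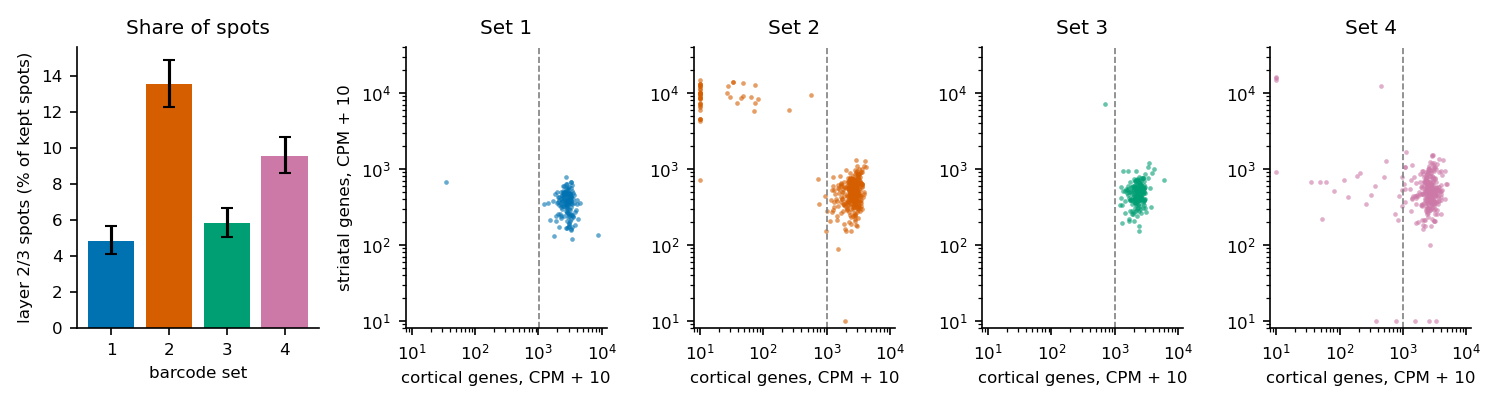
Left, layer 2/3 spots as a share of kept spots by barcode set with exact 95% binomial intervals. Right, each point is a member spot, with the summed CPM of the 5 cortical genes (x axis) and of 10 striatal genes (y axis), both with 10 CPM added and on log axes. The dashed line marks 1000 CPM. The members left of it number 1, 54, 1 and 27 in sets 1 to 4, and most of those in set 2 carry high striatal levels.

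Against all other kept spots, 105 of 9728 genes were at least 2-fold higher in layer 2/3 spots in each of the 4 sets (1.08%) and 258 were at least 2-fold lower (2.65%). Genes entered with at least 10 CPM in each set in either area, fold changes were taken on CPM + 1, and all layer markers were left out. The rule used this contrast, so nothing is read from these shares. The median log2 ratio of all genes was -0.07, -0.05, -0.06 and -0.08 in sets 1 to 4, and TMM scaling would raise every ratio to other spots by 0.09 to 0.18 and every ratio to layer 4 spots by 0.07 to 0.25. With the cortical minimum applied to members and other spots alike, 54 and 125 of 9472 genes remained at these thresholds (0.57% and 1.32%), of which 31 and 88 were among the 105 and 258.

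Ranked over all spots by the set in which each differed least, the first gene was Igfn1, which encodes an immunoglobulin and fibronectin type III domain protein. Igfn1 was at 86.5, 83.4, 102 and 95.8 CPM in layer 2/3 spots of sets 1 to 4 and at 8.1, 12.3, 16.3 and 8.22 CPM in all other spots, 5.95 to 10.5-fold. Its smallest count ratio, in set 3, was 6.25 (95% interval 5.84 to 6.69), so counting error was small against the difference. Stard8, a GTPase-activating protein, was at 78.5, 71.1, 72.1 and 74.2 CPM against 10.1, 11.97, 11.1 and 11.5 CPM. The values for all other spots are averages over many areas. Spots past both the layer 2/3 and the layer 4 threshold are counted there and were nearer to layer 2/3. In them Igfn1 was at 53.04, 36.9, 67.7 and 36.5 CPM and Stard8 at 53.7, 40.97, 42.9 and 47.1 CPM. With cortical spots alone on both sides, the log2 ratios of Igfn1 were 2.01, 1.71, 1.56 and 2.26 and those of Stard8 2.22, 2.09, 2.13 and 2.01, so that Stard8, and Evc2 at 2.06, 2.25, 2.12 and 2.25, then ranked above Igfn1.

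The neuropeptide gene Vip followed, at 146, 112, 95.04 and 82.8 CPM against 21.1, 20.03, 17.2 and 13.8 CPM in other spots. Ccn3, a matricellular protein, was at 224, 192, 185 and 181 against 43.4, 47.8, 47.8 and 42.1 CPM, and Smoc2, a calcium-binding matricellular protein, was 3.64 to 4.32-fold higher. Frzb, a secreted Wnt antagonist, was 4.02 to 5.16-fold higher, with levels of 41.2, 78.1, 77.2 and 164 CPM, so that set 4 was highest and set 1 lowest while the ratio varied less. Ptgs2, the inducible cyclooxygenase, was at 25.4, 24.2, 19.8 and 34.4 against 3.8, 5.24, 4.46 and 5.84 CPM. Evc2, a protein of the ciliary base, Clec18a and the ubiquitin ligase Pdzrn3 completed the first 10, at 4.39 to 4.68, 4.27 to 5.65 and 3.98 to 7.34-fold. In cortical spots alone, the log2 ratios of Vip were smaller, at 1.39, 1.53, 1.43 and 1.42, as were those of Frzb, at 1.29, 1.32, 1.36 and 1.35. Those of Ccn3 were 1.05, 1.06, 0.94 and 0.90, under 2-fold in sets 3 and 4.

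At the other end, the lowest genes were those of other regions and of myelin. Oxt, the oxytocin precursor of hypothalamic neurons, was at 0.855, 2.75, 2.1 and 4.48 CPM in members and at 527, 248, 142 and 825 CPM elsewhere. Gal (galanin), Dlk1, Arhgap36, Igsf1, Baiap3, AW551984 and Gpx3 were also at least 2-fold lower in each set, with Gal at 0.405 to 3.15 CPM against 14.9 to 43.2 CPM. The direction of Oxt, Gal, Dlk1, Arhgap36, Baiap3, AW551984 and Gpx3 turned in at least 1 set when Lamp5 was left out of the rule, a choice under which 303 of 1300 members lacked the cortical profile. With cortical spots alone on both sides, Oxt and Igsf1 turned as well, and of the 10 leading lower genes only Mobp and Hapln2 were still at least 2-fold lower in all sets. The myelin genes Mobp and Hapln2 kept their direction in each set under every alternative run, Mobp at 187, 124, 161 and 217 CPM against 2408, 1310.2, 1252 and 1696 CPM and Hapln2, a link protein of the nodal matrix, at 3.52, 7.46, 5.83 and 10.6 against 66.3, 62.7, 56.5 and 87.8 CPM.

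Of 15 measured upper-layer genes outside the rule, 5 were higher than in all other spots (Calb1, Stard8, Mef2c, Lhx2 and Agmat) and 0 were lower, with a median log2 ratio of 1.19, 0.92, 1.08 and 1.003. Over all genes tested the shares were 1.08% higher and 2.65% lower, and the rule used this contrast here and wherever all other spots are the comparison. The calcium-binding protein gene Calb1 was at 695, 712, 675 and 739 CPM against 264, 342, 283 and 332 CPM, and Lhx2, a LIM homeobox factor, at 152, 146, 151 and 143 against 48.9, 59.3, 52.5 and 54.96 CPM. Of 10 genes of cortical excitatory neurons, 5 were higher, among them Camk2a, the alpha subunit of the synaptic kinase CaMKII, at 2507, 2929, 2715 and 3244 against 829.9, 1221, 1042 and 1183 CPM, and Neurod1 at 49.8, 26.6, 49.6 and 32.5 against 9.75, 5.89, 11.1 and 9.33 CPM. Mef2c, Lhx2 and Camk2a did not reach 2-fold in all sets with cortical spots alone, their smallest log2 ratios being 0.42, 0.81 and 0.73, while Calb1, Stard8, Agmat and Neurod1 did. Slc17a7 itself did not reach 2-fold in every set, at 2489, 2072, 2109 and 2268 against 1071, 1213, 1235 and 1020.4 CPM.

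Spots with markers of the deeper layers were compared next. Against layer 5 spots, 71 genes were higher in all sets (0.747% of 9505 tested) and 115 were lower (1.21%). Against layer 6 spots, 124 were higher (1.31% of 9487) and 191 lower (2.01%). Against layer 4 spots, 85 were higher (0.863% of 9852) and 291 lower (2.95%). The layer 4 spots were mixed: 53.7, 40.4, 64.0 and 30.3% of them in sets 1 to 4 passed the cortical minimum, against 76.0, 81.3, 72.7 and 61.9% of layer 5 spots and 95.1, 81.3, 93.0 and 81.4% of layer 6 spots. With the minimum in every area, 103 genes were higher (1.1%) and 81 lower (0.864%) than in layer 4 spots among 9374, 93 (0.987%) and 115 (1.22%) than in layer 5 spots among 9427, and 154 (1.63%) and 209 (2.21%) than in layer 6 spots among 9464. Against layer 4, 50 and 39 of these were among the 85 and 291. For layer 5 the overlap was 63 and 89 genes, and for layer 6 it was 115 and 181.

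Several of the genes lowest against layer 4 spots belong to other tissue. The leading ones, Ccdc153, Tmem212, Fam216b, Cfap126 and Dnali1, are genes of motile cilia, Ccdc153 being at 0, 0.0574, 0.405 and 0.312 CPM in layer 2/3 spots (0 counts in set 1, which allows up to 0.35 CPM) and at 187, 87.6, 94.3 and 117 CPM in layer 4 spots. With cortical spots alone, Ccdc153 in layer 4 spots was at 0, 0, 0.409 and 2.26 CPM. In that comparison Ccdc153, Tmem212, Fam216b, Dnali1, 2410004P03Rik, Baiap3 and Oxt turned direction in at least 1 set. For Ccdc153 the log2 ratios were 0, 0.09, -0.0031 and -1.30, from few counts, so no reversal is read from its turn. Tmem212, Fam216b and Dnali1 were also under 1 CPM in layer 2/3 spots of each set. The first 8 of the 85 genes higher than in layer 4 spots were Frzb, Plk5, Ccn3, Trpc6, Ptgs2, Gsg1l, Gucy1a1 and Fst. Plk5, a polo-like kinase family member, was at 51.8, 106, 65.6 and 119.8 CPM against 9.2, 15.8, 9.18 and 24.3 CPM, and Gucy1a1, a subunit of the nitric oxide-sensitive guanylate cyclase, at 157, 163, 167 and 125 against 25.7, 34.01, 29.8 and 31.6 CPM.

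Compared with layer 5 spots, the leading higher genes were Igfn1, Stard8, Plk5, Evc2, Tmem215, Adam33, Smoc2 and Calb1. Igfn1 was at 11.6, 12.2, 11.97 and 5.47 CPM and Stard8 at 10.9, 11.3, 10.02 and 12.2 CPM in layer 5 spots, 6.41 to 14.9 and 5.69 to 6.69-fold below layer 2/3. Calb1 was at 114, 167, 103 and 191 CPM there, 3.86 to 6.5-fold below. The leading lower genes included the myelin genes Mobp, Mbp, Tmem88b and Hapln2, the neurexin ligand gene Nxph3, the myosin light chain gene Myl4 and Trbc2, annotated as a T-cell receptor constant segment. Nxph3 was at 4.94, 6.2, 4.53 and 9.89 CPM in layer 2/3, 96.7, 58.6, 90.3 and 59.7 CPM in layer 5 and 254, 164, 288 and 186 CPM in layer 6 spots. Nxph3 was at least 2-fold lower in each set than in either deeper layer. Over all genes, 1.21% were lower than in layer 5 and 2.01% lower than in layer 6.

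Compared with layer 6 spots, Tmem215 was at 67.6, 57.4, 70.6 and 80.2 CPM against 2.36, 6.51, 3.94 and 8.47 CPM, and Tafa1, a secreted chemokine-like protein, at 168, 131, 119 and 144 against 6.18, 28.5, 8.72 and 20.5 CPM. Bhlhe22, a basic helix-loop-helix factor, was 5.95 to 9.73-fold higher, Adam33, a metalloprotease, 7.03 to 13.5-fold, and Fmod (fibromodulin) 4.15 to 14.2-fold. Ccbe1, Stard8 and Evc2 completed the first 8. On the lower side, Trbc2 was at 12.4, 7.46, 7.12 and 9.47 against 201, 107, 181 and 100.5 CPM, and Krt80, Klk6, Arhgap25, Myl4, Nxph3, Hapln2 and Mobp were also among the first 8, Krt80 at 1.15 to 1.62 CPM against 19.9 to 34.5 CPM.

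In 16 of 9326 genes (0.172%) layer 2/3 spots were at least 2-fold above each of the other layers in every set, and in 56 (0.6%) they were below each. The 16 were Wnt10a, Igfn1, Frzb, Gucy1a1, Agmat, Wfs1, Evc2, Rilpl1, Syt17, Clec18a, Trpc6, Htr3a, Vip, Ccn3, Ccbe1 and Stard8, and 13 held with cortical spots alone, the exceptions being Wnt10a, Vip and Ccn3. Evc2 was at 43.7, 53.3, 46.7 and 52.3 CPM and Clec18a at 23.7, 20.7, 20.97 and 24.2 CPM in layer 2/3 spots, 3.32 to 4.14 and 3.49 to 4.96-fold over layer 4. Trpc6, a cation channel, was at 43.99, 26.5, 32.9 and 30.7 CPM, 2.9 to 4.56-fold over layer 5, and Wfs1, wolframin of the endoplasmic reticulum, at 142, 236, 133 and 163 CPM, 3.24 to 5.59-fold over layer 6. Wnt10a, a Wnt ligand, stood at 46.8, 53.004, 33.8 and 75.6 CPM, 2.22 to 2.95-fold over layer 5. Agmat, agmatinase, and Ccbe1 were low genes with the same pattern, at 10.5 to 14.5 and 12.2 to 23.98 CPM. The 56 lower genes included Mbp, Mog, Mag, Mal and Opalin, known from oligodendrocytes, and the kainate receptor gene Grik3. Of the 56, 27 held with cortical spots alone.

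**Figure D2:**
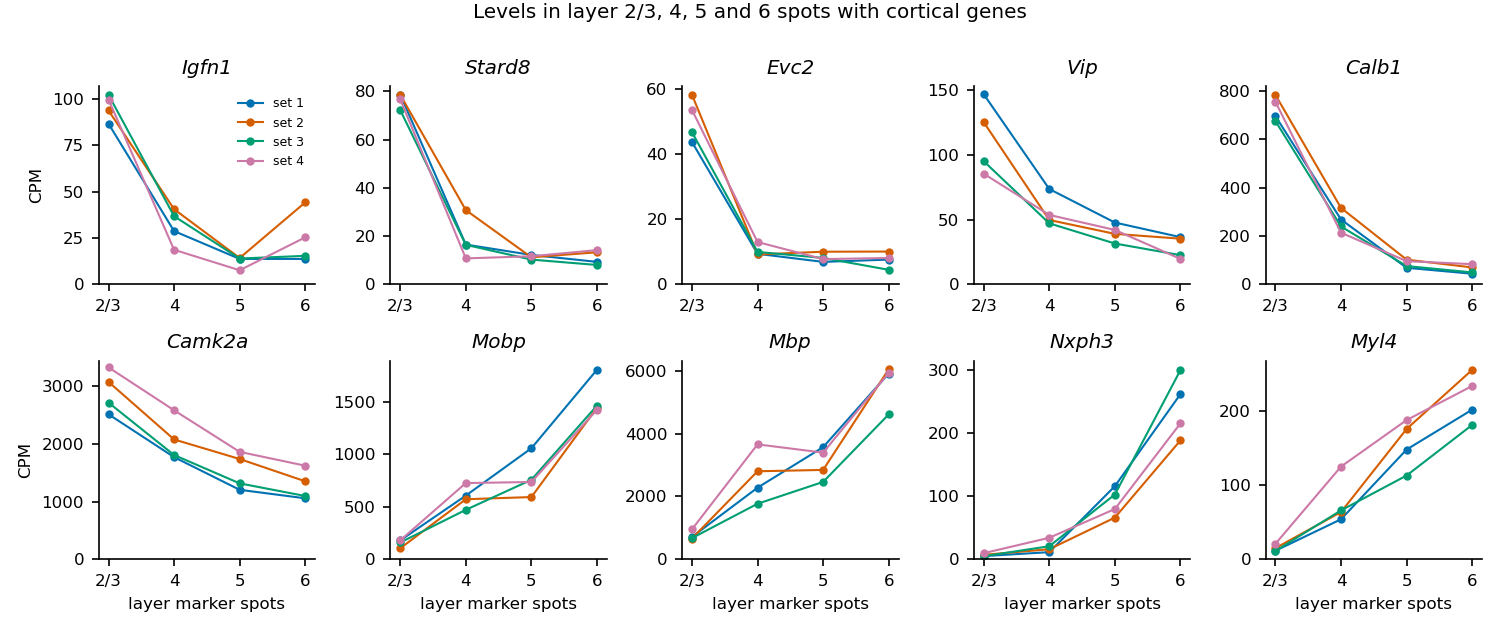
Levels in CPM (y axis) in spots of layers 2/3, 4, 5 and 6 (x axis) that passed the cortical minimum, 1 line per barcode set. Igfn1, Stard8, Evc2, Vip, Calb1 and Camk2a are highest in layer 2/3 in each set, while Mobp, Mbp, Nxph3 and Myl4 are lowest there. The lines join separate groups of spots and levels are not comparable between genes.

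Some genes differed step by step with depth. Among 9626 genes in cortical spots, 30 (0.312%) stepped down from layer 2/3 to 4, to 5 and to 6 in every set with at least a 2-fold total drop, and 41 (0.426%) stepped up. The first group held Calb1, Camk2a, Lhx2, Pdzrn3, Vip, Slc30a3, Nptxr, Camk2n1 and Htr7. Calb1 went from 696, 784, 675 and 755 CPM in layer 2/3 to 268, 316, 239 and 213 CPM in layer 4 and 43.6, 69.7, 49.03 and 83.2 CPM in layer 6, and Camk2a from 2515, 3078, 2717 and 3329 to 1055, 1351, 1095 and 1622 CPM between layers 2/3 and 6. The second group held Tbr1, Foxp2 and Tle4, transcription factors of layer 6 neurons, together with Nxph3, Grik3, Chrna4, Sema3e, Efnb3 and myelin genes. Tle4 went from 21.3, 13.1, 20.9 and 15.2 CPM to 146, 77.9, 133 and 71.9 CPM. These genes were picked out after the pattern was seen, and layer markers chose the spots, so no support for the layers is read from them.

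Of 13 deep-layer genes tested against layer 6 spots, 7 were lower in layer 2/3 (Bcl11b, Foxp2, Tle4, Ccn2, Cplx3, Nxph4 and Ntsr1) and 0 higher, against 2.01% and 1.31% of all genes, with a median log2 ratio of -2.64, -1.005, -2.07 and -1.44. Set 2 had the value nearest to 0. Layer 6 markers chose the layer 6 spots and layer 2/3 markers chose the members, so this contrast was built into the choice. Nothing is read from these counts. Foxp2 was at 0.57, 10.5, 1.94 and 4.06 CPM over all members and at 0.572, 1.11, 1.7 and 2.51 CPM in members with cortical genes, so most Foxp2 counts of set 2 came from its 54 spots without the cortical profile.

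All 9 oligodendrocyte genes were lower in layer 2/3 spots than in all other spots and than in layer 4, 5 and 6 spots, where 2.65, 2.95, 1.21 and 2.01% of all genes were lower. Cldn11 did not reach 2-fold against layer 4 with cortical spots alone, at a smallest log2 ratio of -0.99. Mbp, myelin basic protein, was at 724, 728, 677 and 1117 CPM in layer 2/3, 2278, 2802, 1766 and 3660.5 CPM in cortical layer 4 spots and 5871, 5839.9, 4577 and 6258 CPM in layer 6 spots. Mog, a surface protein of the myelin sheath, was at 31.3, 21.7, 28.2 and 33.5 CPM and 4.28 to 7.37-fold lower than in layer 5. Of 4 oligodendrocyte precursor genes, 0 passed 2-fold against layers 4, 5 or 6 and Olig1 was lower than in all other spots, a call not held with cortical spots alone. The median log2 ratio of the 4 to layer 5 was -0.60, -0.13, -0.33 and -0.57, below 0 in each set, while Pdgfra was slightly above layer 5 in each, at 33.6, 24.5, 32.3 and 28.2 against 31.9, 21.8, 28.5 and 23.4 CPM.

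Ionotropic glutamate receptors carry fast excitation, and few of their genes passed 2-fold between layers. Of 9 AMPA and kainate receptor genes, 1 was higher than in layer 4 (Gria3) and 2 were lower (Grik1 and Grik3), and Grik3 was also the 1 lower gene against layers 5 and 6. The shares over all genes were 0.863% higher and 2.95% lower against layer 4, and 1.21% and 2.01% lower against layers 5 and 6. Gria3, the GluA3 subunit, was at 365, 275, 305 and 274 CPM in layer 2/3 and 116, 92.9, 142 and 88.8 CPM in layer 4. Neither Gria3 nor Grik3 passed 2-fold against layer 4 in all sets with cortical spots alone, at smallest log2 ratios of 0.90 and -0.36. Grik3, the GluK3 kainate subunit, was at 15.8, 17.3, 12.5 and 19.99 CPM in layer 2/3 against 94.97, 82.997, 75.6 and 66.6 CPM in layer 5 and 155, 132, 134 and 106 CPM in layer 6. Both of these Grik3 calls held with cortical spots alone.

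No NMDA receptor gene of 5 tested reached 2-fold in all sets, with 0 higher and 0 lower against each area, where between 0.747 and 1.31% of all genes were higher and between 1.21 and 2.95% lower, so a count of 0 of 5 is near that background. Their median log2 ratio was above 0 in each set, at 0.45, 0.29, 0.33 and 0.41 against all other spots and 0.46, 0.16, 0.20 and 0.21 against layer 5. Grin2b, the GluN2B subunit, was at 729, 565, 704 and 535 CPM against 432, 397, 450 and 321 CPM in layer 5, and Grin2a, GluN2A, at 294, 251, 219 and 243 against 185, 200.2, 146 and 159 CPM. Among 7 metabotropic receptors, Grm2 was higher and Grm8 lower than in layer 6: Grm2 at 80.8, 44.5, 63.1 and 58.1 against 12.6, 8.89, 12.5 and 14.3 CPM and Grm8 at 18.5, 17.3, 18.5 and 22.6 against 44.1, 61.4, 45.2 and 54.8 CPM. Grm2 was higher again in cortical layer 4 spots, at 177, 102, 133 and 109.5 CPM.

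No GABA-A receptor gene passed 2-fold in all sets, with 0 higher and 0 lower of 11 against layer 5, near the shares over all genes of 0.747% and 1.21%. The family's median log2 ratio to layer 5 was 0.32, 0.27, 0.17 and 0.22. Within the family, Gabra2 was at 169, 97.5, 148 and 123 CPM against 99.3, 63.4, 90.7 and 83.6 CPM in layer 5. Gabra5, a subunit of extrasynaptic receptors, was lower, at 57.95, 39.01, 52.1 and 36.5 against 120.4, 73.5, 112 and 72.9 CPM. Gabrd, the delta subunit, was at 174, 115, 146 and 111 against 92.8, 64.3, 84.1 and 62.9 CPM. Each of these 3 subunits kept its direction in all 4 sets without passing 2-fold in all of them.

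Among receptors for modulators, Htr3a, the ionotropic serotonin receptor of a class of upper-layer interneurons, was higher against each area. It was a low gene, at 12.1, 10.8, 11.98 and 11.7 CPM in layer 2/3 and 3.15, 0.782, 2.24 and 2.29 CPM in layer 5, which rest on 127, 188, 148 and 112 counts in layer 2/3. Htr1f was lower than in layers 5 and 6, at 4.37, 9.92, 5.34 and 7.29 against 42.97, 34.02, 48.4 and 31.4 CPM, and Htr7 was higher than in layer 6, at 31.6, 14.3, 26.2 and 19.99 against 3.91, 4.6, 3.86 and 4.29 CPM. The adrenergic receptor gene Adrb1 was higher than in all other spots and in layer 6, at 108, 219, 96.9 and 265 against 47.5, 99.6, 47.3 and 131 CPM, but with cortical spots alone its smallest log2 ratios were 0.68 and 0.97, under 2-fold. Adra1d was also higher than in both, at 110.5, 107, 127 and 110.5 against 24.4, 21.5, 21.8 and 47.04 CPM, which with cortical spots alone held against layer 6 only, and was higher still in cortical layer 4 spots at 173, 228, 185 and 190.3 CPM.

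For acetylcholine, the muscarinic receptor gene Chrm3 was higher than in layer 4, at 122, 33.3, 66.7 and 41.95 against 28.1, 8.76, 25.6 and 14.5 CPM, but not in all sets with cortical spots alone (smallest log2 ratio 0.85). The nicotinic subunit Chrna4 was lower than in layers 5 and 6, at 13.1, 16.98, 13.03 and 16.8 against 63.04, 50.9, 44.7 and 66.6 and 89.8, 74.8, 75.3 and 76.2 CPM, and Chrna5 was at 1.52, 1.84, 2.02 and 2.71 against 30.8, 22.6, 27.2 and 14.2 CPM in layer 6. Of the dopamine receptors, Drd1 was at 0.285, 7.8, 1.38 and 1.249 CPM, highest in set 2. Drd2 was at 0.855, 19.7, 2.1 and 4.06 CPM over all members and at 0.763, 1.11, 1.7 and 1.74 CPM in members with cortical genes, and its direction against layer 6 turned in at least 1 set at a stricter score threshold. Drd4 was at 3.61, 3.67, 3.24 and 5.73 CPM in members and 0.598, 0.894, 0.438 and 1.53 CPM in layer 5, levels that did not enter the comparison because they lie under 10 CPM.

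**Figure D3:**
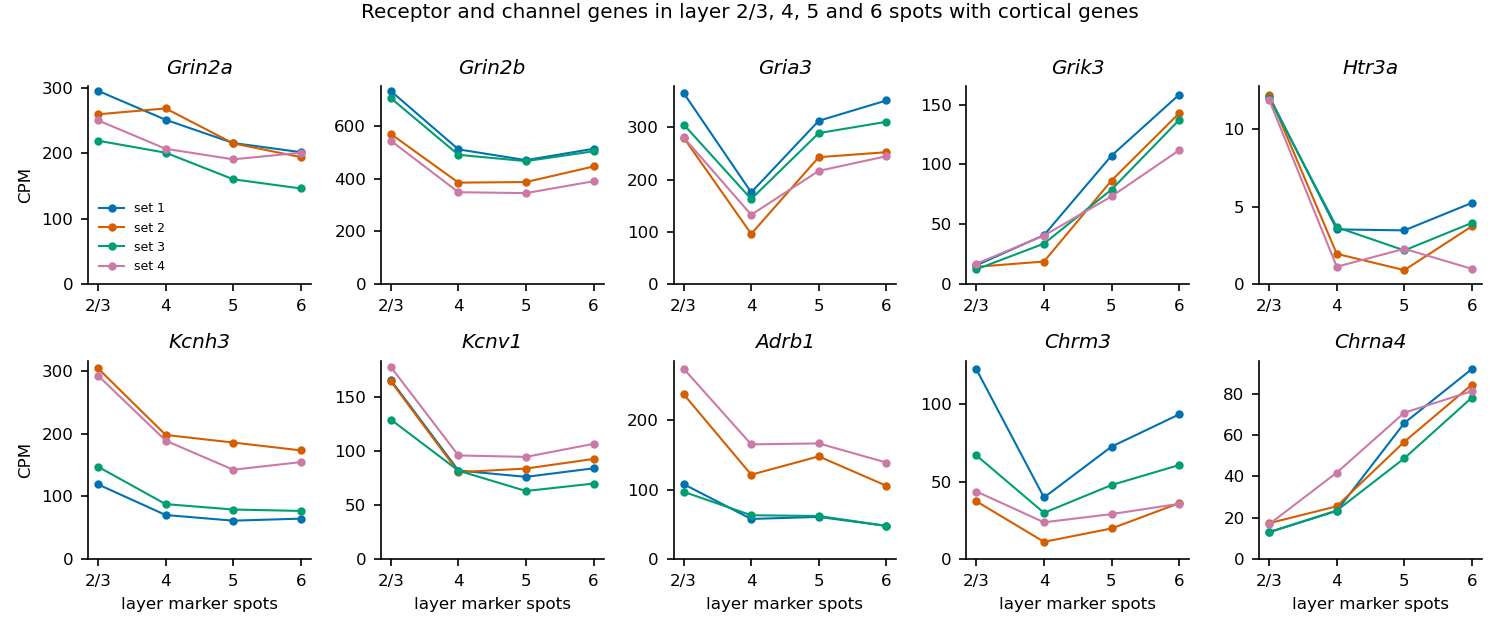
Levels in CPM (y axis) of 10 receptor and channel genes in spots of layers 2/3, 4, 5 and 6 that passed the cortical minimum (x axis), 1 line per barcode set. Htr3a, Kcnh3, Kcnv1, Adrb1, Grin2b and Chrm3 are highest in layer 2/3 in each set, and Chrna4 and Grik3 are lowest there. Grin2a in set 2 and Gria3 in set 3 are the exceptions among the genes high in layer 2/3, each higher in another layer.

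Of 32 potassium channel genes, 4 were higher than in all other spots (Kcnh3, Kcnh5, Kcnh7 and Kcnv1) and 2 lower (Kcnab1 and Kcnk2), with a median log2 ratio of 0.35, 0.28, 0.29 and 0.27, where 1.08% of all genes were higher and 2.65% lower. None of these 6 reached 2-fold in all sets with cortical spots alone, the smallest log2 ratio of Kcnh3 being 0.73 and that of Kcnv1 0.73. Kcnh3, an ether-a-go-go family channel of forebrain neurons, was at 119, 299, 147 and 285 CPM against 44.7, 143, 69.4 and 99.4 CPM, and Kcnv1, a modulatory subunit, at 165, 148, 129 and 171 against 44.5, 54.1, 47.1 and 47.01 CPM. Against layer 5, 0 were higher and 1 lower, namely the beta subunit Kcnab1 at 71.7, 140.5, 80.1 and 86.3 against 168, 376, 239 and 223 CPM. Kcnk2, a leak channel, was lower than in layer 4, at 14.7, 14.4, 17.2 and 12.4 against 59.5, 46.5, 65.9 and 50.3 CPM in cortical spots.

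Celsr3, the gene altered in the study, was at 31.6 (95% interval 28.3 to 35.2), 50.02 (95% interval 46.8 to 53.5), 24.5 (95% interval 21.8 to 27.5) and 47.5 (95% interval 43.2 to 52.03) CPM in layer 2/3 spots of sets 1 to 4. The intervals of sets 2 and 4 lay above those of sets 1 and 3, and no genotype was read from this level. The same order appeared outside layer 2/3, at 31.4, 45.5, 25.01 and 44.7 CPM in layer 5 spots and 31.7, 46.2, 26.1 and 47.1 CPM in all other spots, and the layer 2/3 level was 0.941 to 1.08 times that of other spots. Celsr2 was at 222, 179, 207 and 176 CPM and Celsr1 at 3.99, 3.38, 5.91 and 2.6 CPM. Of 9 genes of the Celsr and planar cell polarity group tested, 0 were 2-fold higher or lower than in layer 5, near the shares over all genes of 0.747% and 1.21%. Prickle2 was at 271, 299, 314 and 306 against 179, 210.1, 216 and 188 CPM in layer 5, Fzd3 at 176, 93.8, 141 and 87.03 against 101, 56.4, 82.6 and 50.2 CPM, and Vangl2 at 10.5, 14.2, 12.7 and 16.6 against 20.6, 21.1, 17.9 and 23.8 CPM. The first pair of genes was above layer 5 in each set, and Vangl2 was below it in each set.

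Axon guidance genes split by member. Against layer 5, Unc5d, a netrin receptor of upper layers, and the repellent Sema3a were higher (2 of 30), and Unc5b and Sema3e were lower (2 of 30), against 0.747% and 1.21% of all genes. Unc5b did not hold against layer 5 with cortical spots alone, at a smallest log2 ratio of -0.79. Sema3a was at 47.3, 28.5, 34.9 and 29.4 against 18.7, 9.83, 15.4 and 10.3 CPM, and Sema3e at 14.9, 10.3, 7.29 and 10.1 against 53.1, 33.7, 40.1 and 34.6 CPM. Against layer 6, Unc5d and the semaphorin receptor gene Plxnd1 were higher (2 of 29), and Slit1, Unc5b, Nrp1, Sema3e and Efnb3 were lower (5 of 29). Over all genes the shares were 1.31% and 2.01%. Plxnd1 was at 109, 171, 109.6 and 179 against 18.99, 75.3, 16.2 and 46.6 CPM. In cadherins, Pcdh20 was higher than in layer 5 (1 of 18), at 86.2, 62.6, 44.1 and 63.9 against 23.9, 18.4, 21.1 and 21.6 CPM. In spots past both the layer 2/3 and the layer 4 threshold Pcdh20 was higher still, at 192, 145, 100 and 113 CPM. Against layer 6, Pcdh20, Pcdh8 and Cdh22 were higher (3 of 18) and Cdh9, Cdh13 and Cdh18 lower (3 of 18), where 1.31% and 2.01% of all genes were. Cdh13 did not hold with cortical spots alone (-0.84, smallest log2 ratio). Pcdh8 was at 115, 127, 162 and 150 against 23.3, 26.4, 26.6 and 45.4 CPM, and Cdh9 at 12.5, 13.7, 11.3 and 12.1 against 81.2, 58.7, 72.2 and 47.98 CPM.

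Of 13 interneuron genes, Vip was the 1 gene higher in layer 2/3 than in layer 5, in layer 6 and in all other spots, where 0.747, 1.31 and 1.08% of all genes were higher. Vip was at 39.5, 33.8, 27.3 and 31.95 CPM in layer 5 and 35.3, 30.3, 21.6 and 16.9 CPM in layer 6 spots. Pvalb, of fast-spiking interneurons, was at 187, 185, 204 and 197 CPM in layer 2/3 and 492, 633, 505 and 532 CPM in cortical layer 4 spots. Sst was at 446, 670.1, 302 and 725 CPM in layer 2/3 and 702, 1086, 392 and 917 CPM in layer 5, lower in layer 2/3 in each set, with ranges that overlapped. Calb2 was lower than in all other spots, at 28.9, 21.9, 24.1 and 30.2 CPM, but with cortical spots alone its direction turned in at least 1 set. Adarb2, of interneurons born in the caudal ganglionic eminence, was at 39.2, 37.2, 33.5 and 44.1 CPM against 17.1, 12.4, 16.4 and 21.6 CPM in layer 5. It was above layer 5 in each set without passing 2-fold in all of them.

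Of 9 astrocyte genes, 0 were higher and 0 lower than in layer 5, with Slc1a2, the main glutamate transporter, at 2316, 2002, 2024 and 2295 against 1772, 1710, 1673 and 1854 CPM. Of 8 microglia genes, 0 passed in either direction against any area, counts near the shares over all genes (0.747 to 1.31% higher and 1.21 to 2.95% lower). The summed level of the microglia genes was 508, 501, 477 and 445 CPM in layer 2/3 against 446, 470.4, 437 and 456 CPM in layer 5. The 7 endothelial and mural genes summed to 200.4, 327, 182 and 302 against 141, 207, 130.1 and 215 CPM in layer 6, higher in layer 2/3 in each set. Fibroblast genes of the meninges, which cover the cortical surface, summed to 287, 358, 296 and 263 CPM in layer 2/3 and 46.2, 48.96, 37.9 and 77.04 CPM in layer 6. Of the 8 listed, 3 entered the comparison and all 3 were higher (Col1a2, Igf2 and Igfbp2), against 1.31% of all genes. Igfbp2 alone held with cortical spots alone. The part of these meningeal genes in the other differences was not tested. The layer 1 gene Ndnf was at 20.2, 19.96, 12.1 and 17.5 against 5.18, 7.51, 3.24 and 5.75 CPM in layer 6, and Reln at 127, 84.6, 67.8 and 71.3 against 23.3, 47.4, 28.7 and 37.2 CPM.

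Immediate-early genes, which are induced by neuronal activity, had a summed level of 1202, 1858, 836 and 2503 CPM in layer 2/3 spots of sets 1 to 4. Sets 2 and 4 were above sets 1 and 3, and the same held in layer 5 (955, 1993, 755 and 2119 CPM) and in layer 6 (1157, 1821, 842 and 2726 CPM). Of 13 genes tested against layer 4, Egr3 alone was higher in all sets (0.863% of all genes were), though not with cortical spots alone, at a smallest log2 ratio of 0.80, and 0 of 12 passed against layer 5, where the median log2 ratio was 0.46, -0.04, 0.30 and 0.30. Egr3 was at 156, 76.8, 90.6 and 91.5 CPM in layer 2/3 and 64.6, 51.3, 35.9 and 49.5 CPM in layer 5, and in layer 2/3 it was highest in set 1. Egr2 was at 8.55, 37.2, 4.7 and 52.8 CPM in layer 2/3 and 1.96, 17.1, 0.973 and 14.5 CPM in layer 5. On CPM + 1 this was at least 2-fold above layer 5 in each set. Egr2 was not among the 12 genes tested, because it lay under 10 CPM in sets 1 and 3 of both areas. Fosl2 and Junb were also above layer 5 in each set, Fosl2 at 57.1, 79.7, 24.9 and 80.2 against 25.3, 55.2, 17.2 and 50.4 CPM and Junb at 67.6, 164, 49.1 and 257 against 48.1, 137, 40.6 and 165 CPM. Arc, a cytoskeletal protein of active synapses, was lower in layer 2/3 than in layer 6 in each set, at 150, 429.7, 127 and 709.6 against 257, 530.3, 173 and 1157 CPM.

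**Figure D4:**
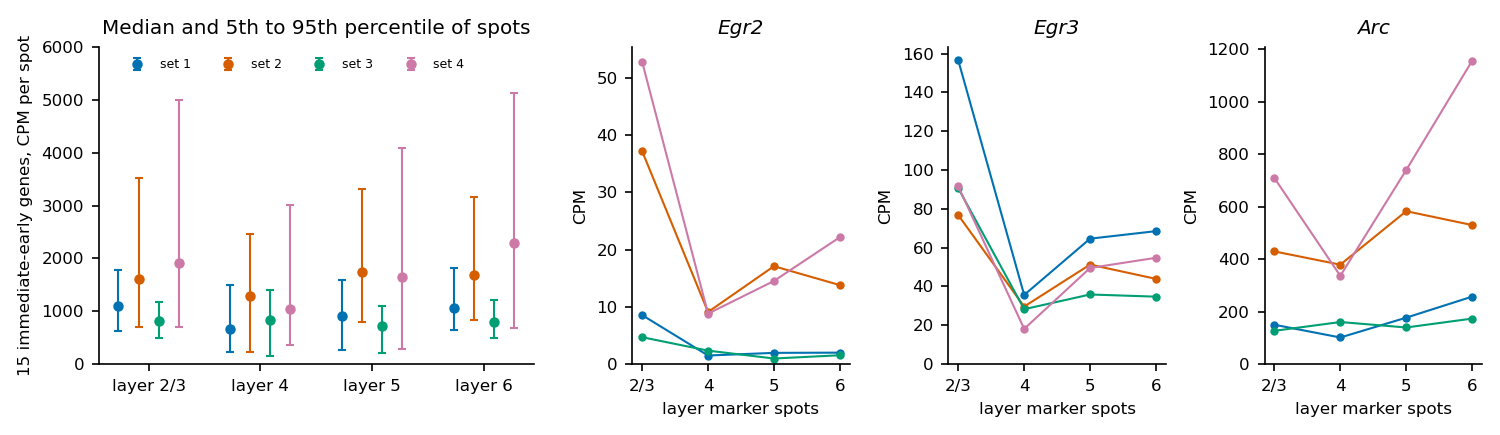
Left, summed CPM per spot of 15 immediate-early genes (y axis) by layer and barcode set, as the median with bars from the 5th to the 95th percentile of spots, which are not replicates. Right, levels of Egr2, Egr3 and Arc in CPM over all spots of each layer. In layer 2/3 the spot medians are 1102, 1611, 816 and 1912 CPM in sets 1 to 4, with sets 2 and 4 above sets 1 and 3.

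Layer 2/3 spots were also set against each other between barcode sets, which compares libraries and not conditions. Of 9833 genes whose mean over the sets reached 10 CPM, sets 1 and 3 were at least 2-fold apart in 48 (0.488%) and sets 2 and 4 in 50 (0.508%). The other pairs differed more: 790 genes (8.03%) between sets 1 and 2, 905 (9.2%) between 1 and 4, 491 (4.99%) between 2 and 3, and 542 (5.51%) between 3 and 4. Member depth moved with this, since sets 1 and 3 had medians of 71318 and 62190 counts and sets 2 and 4 of 47168 and 32444, and its part was not tested. Of the genes apart in these 4 pairs, 63.3, 67.4, 69.5 and 68.8% were at least 2-fold apart in the same direction in layer 5 spots of the same sets, and for sets 1 and 3 and sets 2 and 4 the shares were 37.5% of 48 and 50% of 50 genes.

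The widest ranges belonged to Gm10260, Olfr305, Amd1, H2-D1, Clic6, Tmem267, Hba-a2, Isoc2a, Olfr307 and Me1. Several were at or near 0 in 1 library. Amd1, of polyamine synthesis, was at 25.4, 18.01, 0 and 43.6 CPM in layer 2/3 and 23.9, 12.4, 0 and 43.7 CPM in layer 5, where the 0 counts of set 3 in layer 2/3 allow up to 0.299 CPM. Me1, malic enzyme, was at 17.1, 8.89, 17.8 and 0 CPM and 22.2, 9.05, 19.95 and 0 CPM, the 0 counts of set 4 in layer 2/3 allowing up to 0.384 CPM. H2-D1, a class I histocompatibility gene, was at 34.9, 18.1, 36.2 and 0.104 CPM in layer 2/3 and 30.9, 17.8, 38.9 and 0.255 CPM in layer 5. For each of these genes the library low in layer 2/3 was also low in layer 5. Gm10260, Amd1, H2-D1, Hba-a2 and the olfactory receptor genes have close copies in the mouse genome, so which copy the probes read is uncertain. Clic6 differed from the rest: its 0.38, 39.6, 1.38 and 4.68 CPM became 0.286, 1.3, 1.3 and 1.53 CPM in members with cortical genes. Among the cadherins, Cdh2, N-cadherin, was at 61.1, 7.8, 39.5 and 8.64 CPM, with sets 1 and 3 above sets 2 and 4.

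Layer 2/3 was also set against layer 5 within each library. Among 9427 genes in cortical spots, the log2 ratio of layer 2/3 to layer 5 had a median range of 0.23 over the 4 sets, and 47 genes (0.499%) had a range of at least 1. Only Zic1 was 2-fold higher in a set and 2-fold lower in another, at log2 ratios of 0.53, 0.69, 1.22 and -1.18. The widest range was that of Nr4a2, an orphan nuclear receptor gene, at -2.21, 0.23, -2.28 and 0.21. Nr4a2 was at 6.68, 22.1, 4.3 and 40.9 CPM in layer 2/3, so sets 2 and 4 were above sets 1 and 3, while layer 5 spots were at 34.5, 18.7, 24.7 and 35.2 CPM with no such order. Ccn2, Tshz2, Ptgds, Igf2 and Col1a2 were also among the 10 widest, and for Ptgds, Igf2 and Col1a2 it was set 4 that stood apart, with ratios of 0.06, 0.58 and 0.45, against 1.60 or more in each of the other sets. These genes were picked out after their values were seen.

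Within a set, member spots differed from each other in more than counting error. For each gene with at least 20 CPM in every set, the variance over spots beyond Poisson counting was divided by the squared mean, with spot depth allowed for. Over 7165 genes its median was 0.03, 0.0287, 0.0453 and 0.0406 in sets 1 to 4. The 10 most variable genes were Igf2, Ptgds, Mgp, Cartpt, Gfap, Col1a2, Apod, Nnat, Mag and Mog. Igf2 had values of 2.52, 3.73, 2.51 and 10.4 and Ptgds, prostaglandin D synthase, of 2.38, 4.25, 2.17 and 4.06. Igf2, Ptgds, Mgp, Col1a2 and Apod are known from meningeal and perivascular cells, Mag and Mog from oligodendrocytes, and Gfap from astrocytes, which at the pial surface form the glial border. Cartpt, a neuropeptide precursor, had 2.03, 2.37, 2.43 and 4.16.

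Restricted to members with cortical genes, 8 of these 10 stayed among the first 10, Nnat and Mog giving way to Sst and Vtn. The variance of Igf2 in set 4 was then 3.88 in place of 10.4. By list, in these spots, the 3 meningeal genes had a median of 2.42, 2.54, 1.59 and 3.57, 6 oligodendrocyte genes of 0.607, 1.03, 0.918 and 0.893 and 11 interneuron genes of 0.359, 0.743, 0.384 and 0.661. The 10 excitatory neuron genes had 0.0428, 0.0665, 0.0779 and 0.0741, and 9 immediate-early genes 0.0783, 0.153, 0.147 and 0.253. The minimum that kept these spots uses excitatory neuron genes, so no evenness is read from the medians of that list, which over all members were 0.0448, 0.191, 0.0786 and 0.103.

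**Figure D5:**
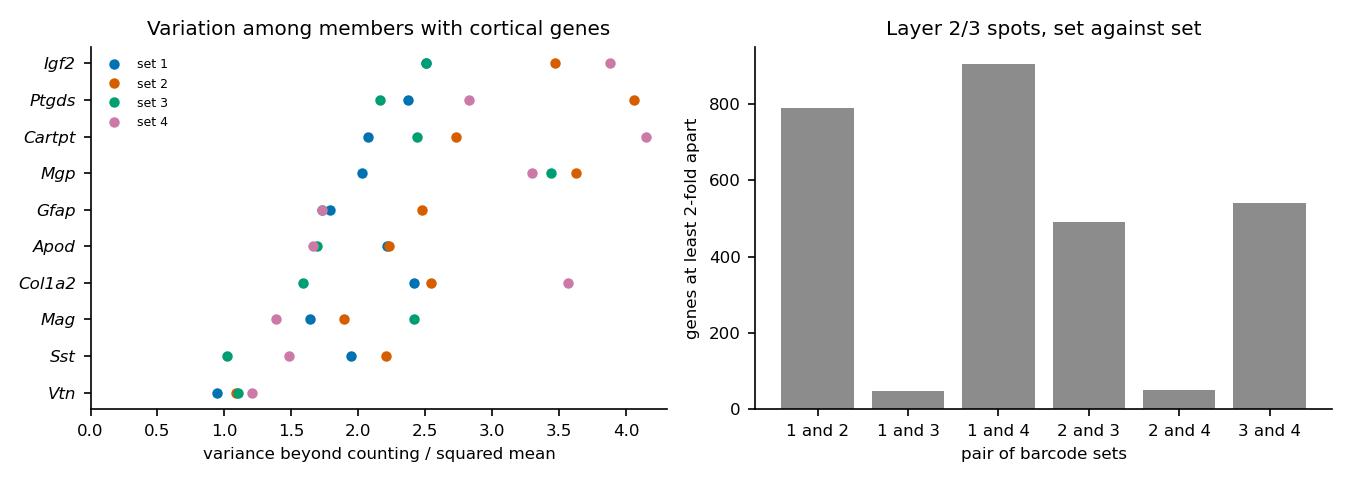
Left, variance beyond counting divided by the squared mean (x axis) for the 10 most variable genes among members with cortical genes, 1 point per barcode set. Right, number of genes at least 2-fold apart between layer 2/3 spots of each pair of barcode sets. The pairs 1 and 3, with 48 genes, and 2 and 4, with 50, are the lowest bars.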

How the data were processed

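The deposited data are raw counts of 19465 genes in 12602 spots of 4 coronal brain sections. Space Ranger and Seurat are named in the submitters' processing notes, with no version; the genome build and probe set are not given in the sources used here, so no coordinate is printed. The counts were used as deposited. Spots with at least 500 counts were kept, and spots were placed in layers by marker z-scores. Of the layer 5 markers chosen, 1 was not used, since the table does not list it under that name. Counts were summed over the spots of each area within each barcode set and expressed per 1000000 counts (CPM), and a gene was taken as higher or lower when the ratio of CPM + 1 was at least 2-fold the same way in all 4 sets. Intervals are 95%: exact Poisson for levels, Clopper-Pearson for shares and exact conditional binomial for ratios. They cover counting error only. The upper limit of a level of 0 is that of the exact Poisson interval.

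The planned edgeR test of genotype was not run, because spot names tie no spot to a mouse. The members and gene lists were chosen with earlier results of these data known. Named genes are the 10 most and least enriched against all other spots, the 8 against each layer, the 10 most variable, the 10 of widest range between sets, and members of the lists; others are said to have been picked after their values were seen. Some genes are not reported here. Doublets were not called, since a spot holds several cells. Computation used Python 3.11.15, numpy 2.4.6, scipy 1.17.1, pandas 2.3.3, matplotlib 3.10.9, R 4.3.3 and edgeR 4.0.16 (scaling factors only). The calls were run on simulated counts with Poisson error only. These held no differences between libraries or in tissue mixture, so they check the computation and not the calls in these data. Alternatives changed the member rule, the scaling, the gene filter and the CPM added.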

Additional observations from a re-analysis of the deposited data

How the results depend on the processing

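No paired analysis was possible because the spots could not be tied to animals, and for the same reason no edgeR or DESeq2 test of genotype, with or without a replicate, was run. The share of spots that were members, 8.31%, was 9.61% at a score threshold of 0.75, 7.31% at the stricter threshold, 10.6% with no layer 4 exclusion, 7.72% after thinning to 10000 counts, 10.3% without Lamp5, 8.96% without Rasgrf2 and 7.65% for members with cortical genes; leaving out 1 barcode set at a time gave 7.40 to 8.78%.

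Against all other spots, the 105 higher genes became 52 without Lamp5, 54 with cortical spots alone and 57 with 10 CPM added, and the 258 lower genes became 139, 125 and 141, or 405 with no gene filter. Against layer 4 spots, the 85 higher genes became 54 with no layer 4 exclusion, 43 after thinning and 52 with 10 CPM added. The 291 lower genes became 81 with cortical spots alone, of which 39 were among the 291, 527 with no filter and 152 with 10 CPM added. All these numbers count the genes called under a setting, which need not be the same genes. Against layer 5 spots, the 71 higher genes became 37 without Lamp5 and 30 with 10 CPM added, and the 115 lower genes became 59 with 10 CPM added. Against layer 6 spots, 10 CPM added gave 63 higher and 108 lower genes. Leaving out 1 barcode set gave 110 to 125 higher and 274 to 313 lower genes against all other spots, 93 to 114 and 274 to 393 against layer 4, 83 to 89 and 125 to 176 against layer 5, and 137 to 156 and 205 to 221 against layer 6, where fewer sets have to pass.

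Between sets, 10 CPM added gave 397 genes for sets 1 and 2, 16 for 1 and 3, 440 for 1 and 4, 225 for 2 and 3, 21 for 2 and 4 and 224 for 3 and 4. No gene filter gave 126 for 1 and 3, 1385 for 1 and 4, 754 for 2 and 3, 142 for 2 and 4 and 864 for 3 and 4, and without Lamp5 sets 2 and 4 had 123. With 1 other set left out, the counts ran from 796 to 801, 45 to 46, 869 to 924, 482 to 490, 47 to 52 and 517 to 553 for the 6 pairs in that order of sets: 1 and 2, 1 and 3, 1 and 4, 2 and 3, 2 and 4, 3 and 4.

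For single genes, the log2 ratio in the set least in favour of the call turned direction in 29 cases. Without Lamp5, against all other spots, it was 0.0893 for AW551984, 0.31 for Arhgap36, 0.12 for Baiap3, 0.47 for Dlk1, 0.24 for Gal, 0.0143 for Gpx3 and 0.35 for Oxt. With cortical spots alone, against other spots, it was 0.62 for Agt, 0.90 for Calb2, 0.38 for Igsf1, 0.75 for Oxt, 0.34 for Penk, 0.27 for Prkcd and 1.02 for Zic1. With cortical spots alone, against layer 4, it was 0.54 for 2410004P03Rik, 0.86 for Agt, 0.56 for Baiap3, 0.97 for Calb2, 0.0909 for Ccdc153, 0.65 for Dnali1, 0.57 for Fam216b, 0.53 for Htr2c, 0.77 for Oxt, 0.29 for Prkcd, 0.31 for Tmem212, 0.72 for Ttr and 1.23 for Zic1. Prkcd against layer 4 was 0.90 without Cux2, and Drd2 against layer 6 was 0.45 at the stricter threshold. The causes of these turns were not tested. Genes under 10 CPM rest on few counts in the shallow set 4 and were left out of the calls.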
